A study of Mus musculus with 16 samples.

Results

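The neutrophil granule and surface genes are 10 genes, S100a8, S100a9, Ngp, Camp, Ltf, Mmp8, Mmp9, Retnlg, Cxcr2 and Csf3r. Their RNA is used to mark maturing and mature neutrophils, though which cells of these lungs held it was not tested. The genes were found by name among the array probes that are not controls, Cxcr2 through its older name Il8rb. This gave 13 of 41174 probes and 10 of 27729 gene names. The arrays held RNA of whole lung from 16 mice of the inbred BALB/c strain, 1 mouse per array, in 4 groups of 4. At the age of 3 days the pups breathed ozone at 1000 ppb for 3 h, or filtered air for 3 h as littermate controls, cross-fostered so that a dam was with every pup, and were killed for lung RNA either 6 h or 24 h later. The groups were thus ozone 6 h, air 6 h, ozone 24 h and air 24 h, the time points were run separately, and the 4 lungs of a group were picked at random from a larger exposed group.

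Neutrophils are short-lived white blood cells that are made in the bone marrow and are drawn into tissue by chemokines, which they sense through surface receptors. They carry antimicrobial and tissue-degrading proteins in granules that are filled in a fixed order as the cell matures: primary granules first, then secondary granules with lactoferrin and cathelicidin, then gelatinase granules. The calcium-binding proteins S100a8 and S100a9 fill the cytosol. In ozone-exposed airways neutrophils are known as an early inflammatory cell, so the question addressed by these genes is whether their RNA differed between ozone and air lungs at either time. In RNA from whole lung, fewer cells of a type and less RNA per cell cannot be told apart.

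The array sequences bear on how each gene was read, since 3 of the 10 genes had more than 1 probe. Coordinates come from the array annotation and refer to mouse build mm9. The 60-base probes below are shown for S100a8 and Ngp, whose air levels differed most between the times, for both probes of Ltf, which tracked each other, and for 1 probe of Mmp9, whose pair did not.
S100a8 (A_51_P256827): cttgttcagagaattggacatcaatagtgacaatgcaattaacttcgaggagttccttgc
Ngp (A_52_P429450): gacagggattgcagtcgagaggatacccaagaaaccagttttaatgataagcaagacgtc
Ltf (A_51_P188141): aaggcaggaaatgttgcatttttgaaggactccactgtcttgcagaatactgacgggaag
Ltf (A_52_P15388): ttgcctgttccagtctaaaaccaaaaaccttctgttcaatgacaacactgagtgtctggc
Mmp9 (A_51_P401797): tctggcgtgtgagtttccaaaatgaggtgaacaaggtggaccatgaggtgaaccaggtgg
The S100a8 probe lies on chromosome 3 from 90473778 to 90473837 on the plus strand, and the S100a9 probe lies near it on the minus strand, from 90496585 to 90496644. Camp, Ngp and Ltf are near each other on chromosome 9, with the Camp probe from 109749992 to 109750051, the Ngp probe from 110324266 to 110324814, and a Ltf probe from 110938264 to 110941314. The spans of the Ngp and Ltf probes are longer than their 60 bases, as for a probe that joins separate genomic blocks. Mmp8 lies on the same chromosome, farther off, from 7568238 to 7568297. The Mmp9 probe shown lies on chromosome 2 from 164780303 to 164780362, the Retnlg probe on chromosome 16 from 48874468 to 48874527, the Cxcr2 probe used on chromosome 1 from 74206886 to 74206945, and the Csf3r probe on chromosome 4 from 125721294 to 125721353.

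Values are log2 signals relative to the 75th percentile of the same array, so 0 means a signal equal to that percentile, and levels of different probes are not compared. That percentile was a processed signal of 574 to 946, and no spot was saturated. Ozone replicate 3 of 6 h stood apart: 83.9% of its spots were well above background, where the other arrays of 6 h reached at most 72.4%. The tissue label was borne out by the defining genes of lung: Sftpc, the surfactant protein of alveolar type II cells, averaged 9.51 in ozone lungs and 9.44 in air lungs at 6 h, and the club cell gene Scgb1a1 averaged 7.01 and 7.05. All 10 members were well above background on all 16 arrays and were tested among 21631 genes. Precision is limited by having 4 arrays per group, with a median standard error (SE) of 0.133 for a log2 change over all genes. Spread between lungs of 1 group was above the median of all genes (SD 0.193, log2) for all 10 members, between 0.209 for Csf3r and 0.457 for Mmp9, with a median of 0.306.

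**Figure D1:**
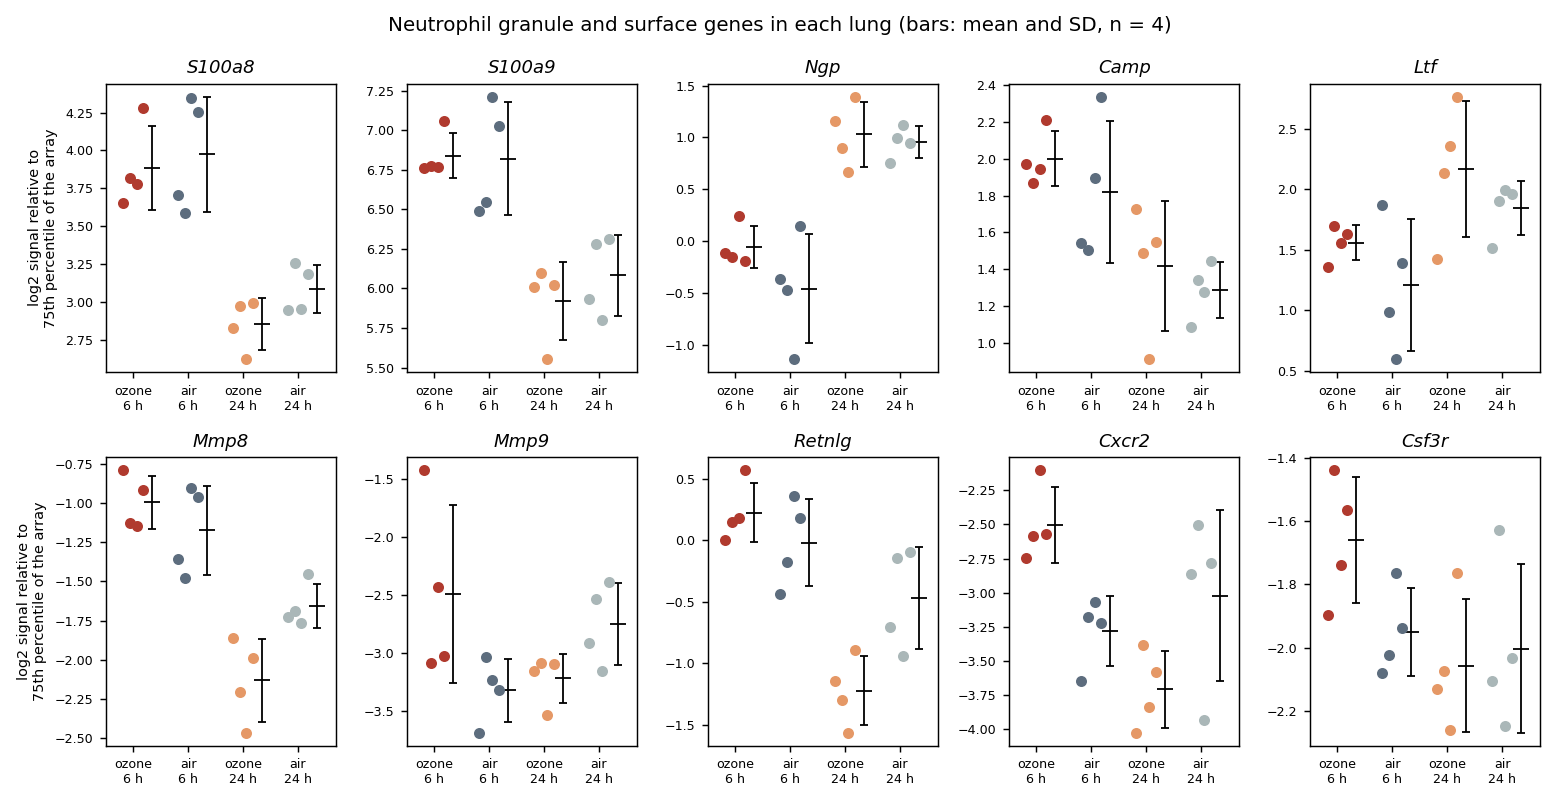
Signal of the 10 genes in each lung. Each panel is 1 gene, each point 1 lung, the y axis is the log2 signal relative to the 75th percentile of the array on a scale of its own per panel, and bars are the mean and SD of 4 lungs. S100a8, S100a9 and Mmp8 sat lower and Ngp higher at 24 h than at 6 h in ozone and air lungs alike. The ozone and air points of 6 h were apart only for Cxcr2, on the probe used.

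At 6 h after exposure no member passed the test, and 9 of the 10 changes were above 0. Of the 10 members 0 were called at an adjusted p under 0.05, where 4.48% of all genes were. Their median log2 change, ozone minus air, was 0.27, against 0.07 over all genes, of which 61.4% were above 0. The members were read in the same lungs and some moved together between lungs, so their signs are not independent. At an unadjusted p under 0.05 there were 2 members, Cxcr2 and Mmp9, both above 0, against 21% of all genes in either direction and 10.2% above 0. Only Cxcr2, on the probe used, had ozone and air values that did not overlap, which held for 9.49% of all genes, 4.61% with ozone higher. No member was called under any of the 14 other settings tried at this time.

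S100a9, with S100a8 the major cytosolic protein of neutrophils, was at 6.76, 6.78, 6.77 and 7.06 in ozone lungs and at 6.49, 6.55, 7.21 and 7.03 in air lungs, a change of 0.02 ± 0.17 (log2, SE, n = 4 per group, adjusted p = 0.954). The ozone values lay inside the range of the air values, of which the lower pair came from the first slide of this time and the higher pair from the other. S100a8 had a change of -0.09 ± 0.16 (adjusted p = 0.77), the only member below 0. Ngp, a granule protein of the cathelin family, was at -0.11, -0.15, 0.25 and -0.19 in ozone lungs and at -0.36, -0.47, -1.13 and 0.15 in air lungs (0.40 ± 0.20, adjusted p = 0.263). Air replicate 3 was the low value there, and the groups overlapped through air replicate 4. Camp, the cathelicidin precursor, gave 0.18, Ltf, the iron-binding lactoferrin of secondary granules, 0.35, Mmp8, the neutrophil collagenase, 0.18, and Retnlg, a secreted resistin-like protein, 0.24, with adjusted p between 0.44 and 0.573.

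The largest changes at 6 h were those of Mmp9 and the receptor Cxcr2. Cxcr2, the receptor through which neutrophils follow chemokines such as Cxcl1 and Cxcl5, was at -2.75, -2.58, -2.11 and -2.57 in ozone lungs and at -3.65, -3.18, -3.07 and -3.22 in air lungs. Every ozone value was above every air value, with the highest in ozone replicate 3, the array that stood apart. The change was 0.78 ± 0.25, a fold of 1.71, with an adjusted p of 0.0856 from limma. Slide by slide it was 0.75 in replicates 1 and 2 and 0.81 in replicates 3 and 4, and it was 0.65 ± 0.26 without ozone replicate 3. Leaving out air replicate 3 of 24 h, which changes only the estimate of spread, brought the adjusted p to 0.0285. In the other 15 fits that left out 1 array Cxcr2 was not called. Csf3r, the receptor of the growth factor G-CSF, was at -1.90, -1.44, -1.74 and -1.57 in ozone lungs and at -2.08, -2.02, -1.76 and -1.94 in air lungs, a change of 0.29 ± 0.14 (adjusted p = 0.257). Its groups overlapped through ozone replicate 1. Mmp9, the gelatinase of the last granules to form, was at -1.42, -3.08, -2.43 and -3.03 in ozone lungs and at -3.69, -3.04, -3.24 and -3.32 in air lungs. Its change of 0.83 ± 0.29 (adjusted p = 0.109) rested on ozone replicate 1: without that lung it was 0.47 ± 0.22 (adjusted p = 0.237).

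**Figure D2:**
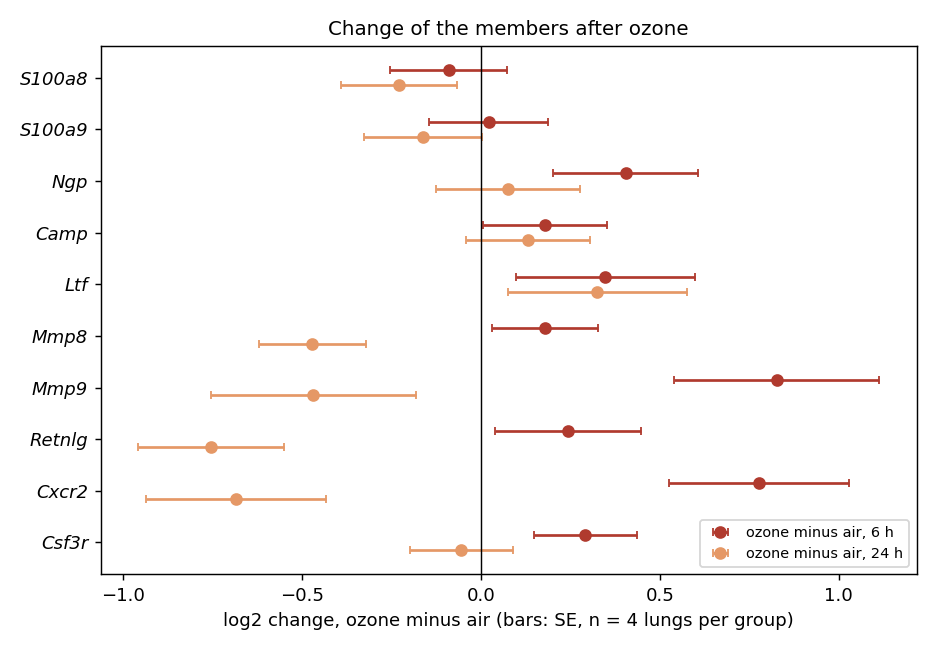
Change of each member after ozone. The x axis is the log2 change, ozone minus air, with SE bars for 4 lungs per group, in the upper point of each pair at 6 h and in the lower at 24 h. At 6 h the points of 9 genes are above 0 and at 24 h those of 7 are below it, and none passed an adjusted p under 0.05.

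At 24 h after exposure again no member passed the test, and 7 of the 10 changes were below 0. Of the 10 members 0 were called, where 2.01% of all genes were, and the median change was -0.20, against 0.02 over all genes. Only 3 of 10 were above 0, as were 54.9% of all genes. Here too the signs of the members are not independent. At an unadjusted p under 0.05 there were 3 members, Retnlg, Mmp8 and Cxcr2, all below 0, against 13.3% of all genes in either direction and 5.05% below 0. Mmp8 alone had groups that did not overlap, which held for 11.8% of all genes, 4.96% with ozone lower.

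Retnlg had the largest change among the members at 24 h. It was at -1.14, -1.30, -1.57 and -0.89 in ozone lungs and at -0.70, -0.14, -0.94 and -0.10 in air lungs. Ozone replicate 4 reached into the range of the air lungs and the other ozone values were below it. The change was -0.75 ± 0.20, a fold of 0.593 (adjusted p = 0.0693), and it was -0.80 within the first slide of this time and -0.71 within the other. Mmp8 was at -1.86, -2.20, -2.47 and -1.99 in ozone lungs and at -1.73, -1.69, -1.76 and -1.46 in air lungs. All 4 ozone values were below all air values, with ozone replicate 3 the lowest, and the change was -0.47 ± 0.15 (adjusted p = 0.131). Slide by slide it was -0.32 in replicates 1 and 2 and -0.62 in replicates 3 and 4. Cxcr2 was at -4.02, -3.39, -3.83 and -3.58 in ozone lungs and at -2.86, -2.51, -3.93 and -2.78 in air lungs. Air replicate 3 lay among the ozone values and the other air values were above them all. The change was -0.68 ± 0.25 (adjusted p = 0.21), and within the slides it was -1.02 and -0.35. Without air replicate 3 of 24 h, Cxcr2 and Retnlg passed the test, with changes of -0.99 ± 0.20 (adjusted p = 0.0157) and -0.91 ± 0.20 (adjusted p = 0.0325). That lung held the lowest air value of both genes, and neither passed in the other 15 fits that left out 1 array.

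The other members differed less at 24 h. Mmp9 was at -3.15, -3.09, -3.53 and -3.10 in ozone lungs and at -2.91, -2.54, -3.16 and -2.39 in air lungs, a change of -0.47 ± 0.29 (adjusted p = 0.547). S100a8 had a change of -0.23, S100a9 of -0.16 and Csf3r of -0.05, and Ngp, Camp and Ltf were above 0 at 0.08, 0.13 and 0.32, with adjusted p between 0.635 and 0.95 for these 6 genes. Ltf was at 1.42, 2.13, 2.35 and 2.76 in ozone lungs and at 1.51, 1.90, 1.99 and 1.96 in air lungs, so that the ozone values had the wider range and enclosed all air values.

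The difference of the ozone effects, 24 h minus 6 h, was below 0 for all 10 members, though none passed the test of that difference, and the sign turned in 9 of 26 other fits for Ltf, 7 for Camp and 1 for Ngp. All genes split more evenly, with 45% above 0, and 0.0647% of all genes were called in this contrast. The members were read in the same lungs and are not independent, so their shared sign does not count as 10 separate results. Within groups S100a9 and Retnlg had a Pearson r of 0.91, and S100a8 and S100a9 of 0.90. Of the 45 pairs of members 13 had an r below 0. The members' median difference was -0.34, against -0.04 over all genes. Cxcr2 had the largest difference, -1.46 ± 0.36 (adjusted p = 0.113), followed by Mmp9 with -1.30 ± 0.41, Retnlg with -0.999 ± 0.29 and Mmp8 with -0.65 ± 0.21, whose adjusted p lay between 0.165 and 0.212. These 4 had an unadjusted p under 0.05, as had 12.5% of all genes in either direction and 4.5% below 0. For Cxcr2 the 4 ozone values were above the 4 air values at 6 h and below 3 of the 4 at 24 h. Without air replicate 3 of 24 h, its lowest air value, its difference was -1.76 ± 0.27 and passed the test (adjusted p = 0.0317). It did not pass in the other 15 fits that left out 1 array.

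Air lungs themselves differed between the times, and here 6 of the 10 members passed the test: Ngp and Ltf rose, and S100a8, S100a9, Camp and Mmp8 fell, at 24 h against 6 h. Of all genes 49.9% were called in this contrast, 21.4% higher and 28.5% lower. The time points were run separately on slides of their own, so time and slide cannot be told apart. With slide as a random block, where the correlation within slides was 0.0132, 6 members were again called. That fit cannot remove a difference between runs, since no slide held both times. The 2 directions split the granule proteins: Ngp averaged 0.95 ± 0.15 at 24 h and -0.46 ± 0.52 at 6 h (SD, n = 4), a change of 1.41 ± 0.20 (SE, adjusted p = 1.64e-05), and all 4 values at 24 h were above all at 6 h. Ltf averaged 1.84 ± 0.22 at 24 h and 1.21 ± 0.55 at 6 h, a change of 0.63 ± 0.25 (adjusted p = 0.0442) whose groups overlapped and whose call was lost in 11 of 24 other fits.

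S100a8 averaged 3.09 ± 0.16 in air lungs at 24 h and 3.97 ± 0.38 at 6 h (SD, n = 4), a change of -0.89 ± 0.16 (SE, adjusted p = 0.000191) that was called in all 24 other fits. S100a9 averaged 6.08 ± 0.25 at 24 h and 6.82 ± 0.36 at 6 h, a change of -0.74 ± 0.17 (adjusted p = 0.00122). Under quantile normalization the change of S100a9 was -0.19, with an adjusted p of 0.324. Camp changed by -0.53 (adjusted p = 0.0165) and lost its call when air replicate 4 of 6 h (adjusted p = 0.0722) or air replicate 1 of 24 h (adjusted p = 0.0537) was left out. Mmp8 changed by -0.48 (adjusted p = 0.0117), and with normexp background correction by -0.25 (adjusted p = 0.204). Retnlg, Csf3r, Cxcr2 and Mmp9 were not called, at -0.45, -0.05, 0.26 and 0.57. The groups did not overlap for 4 members, S100a8, S100a9, Camp and Ngp, where they did not for 48.9% of all genes.

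Markers of other cells also differed between the air lungs of the 2 times. Among all genes 49.9% were called, 21.4% higher and 28.5% lower, and 48.9% had groups that did not overlap. Of 12 monocyte and macrophage genes 1 rose and 5 fell at 24 h, among them Mrc1 by 1.08 and Mpeg1 by 0.93 on the log2 scale, and their summed level ranged from 12.7 to 13.7 at 24 h and from 19.5 to 26.4 at 6 h. Of 7 red cell genes 3 fell, with a summed level of 140 to 346 at 24 h and 182 to 296 at 6 h. Of 6 platelet genes 1 rose and 4 fell, with a summed level of 5.81 to 6.82 at 24 h and 12.2 to 16.5 at 6 h. The macrophage and platelet sums of the times did not overlap and the red cell sums did, and their part in the members' values was not tested. Of 6 lymphocyte genes 3 rose and 1 fell, of 7 lung epithelium and endothelium genes 3 rose and 1 fell, and of 7 eosinophil, mast cell and basophil genes 2 rose and 2 fell.

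**Figure D3:**
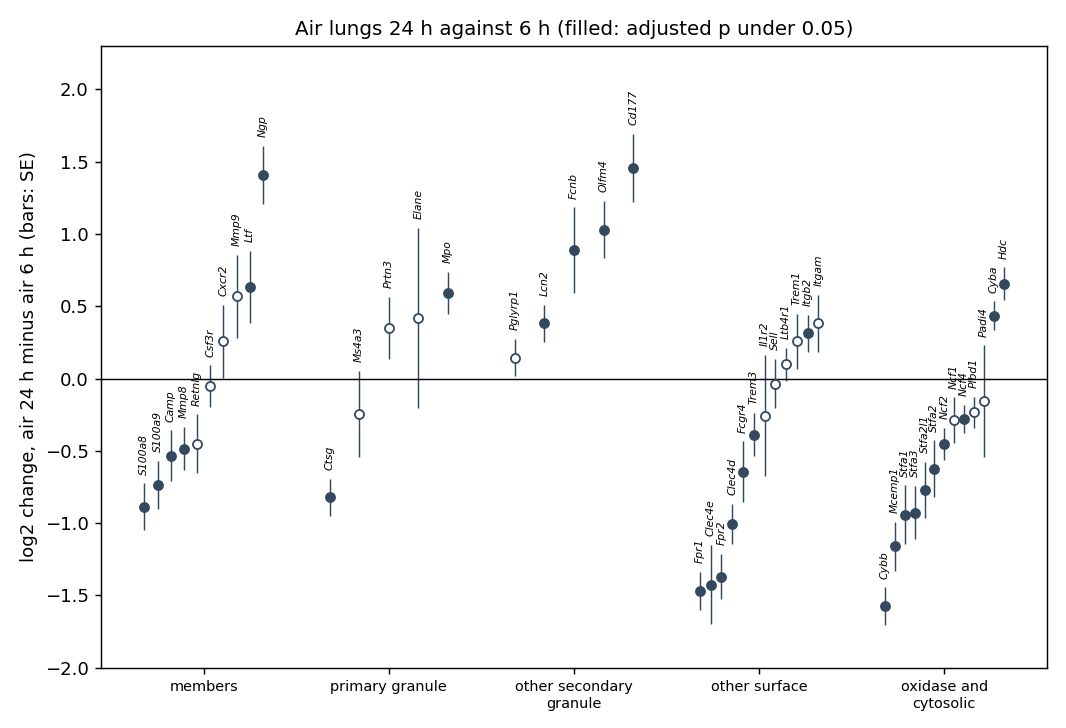
Air lungs at 24 h against air lungs at 6 h. The y axis is the log2 change with SE bars, each point is 1 gene, columns are the members and 4 other neutrophil lists, and filled points have an adjusted p under 0.05. Among the members Ngp is highest at 1.41 and S100a8 lowest at -0.89. The other secondary granule genes all lie above 0, and the points of the oxidase and cytosolic list are below 0 except Cyba and Hdc. Elane was well above background on 3 of 4 arrays at 24 h and 0 of 4 at 6 h, so its point is no measured difference.

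Probes of 1 gene did not always read alike. The 2 Ltf probes tracked each other over the 16 lungs (Pearson r = 0.98, a description), and both gave Ltf higher in air lungs at 24 h, by 0.93 and 0.63. The Mmp9 probes gave r = 0.30. The probe with 10 spots per array, at chromosome 2 from 164780620 to 164780679, had -3.66 in ozone replicate 1 of 6 h, where the other probe had its highest value of -1.42, and its ozone change at 6 h was 0.17 ± 0.17. Its 10 spots differed by a median SD of 0.0915 (log2) per array, but by 0.543 on ozone replicate 1 and 0.514 on air replicate 1 of 6 h. At 24 h both Mmp9 probes were near each other, with changes of -0.47 and -0.52, and the probe with 10 spots also rose in air lungs by 0.55 ± 0.17 (adjusted p = 0.0138 over 32343 probes, of which 50.4% were called). The other Cxcr2 probe, at chromosome 1 from 74206323 to 74206382, was left out of the tests because its spot on air replicate 4 of 24 h was uneven. It stood at -1.03 in ozone replicate 3 of 6 h and -1.01 in air replicate 2 of 24 h and between -5.95 and -4.14 in the other 13 lungs. On this probe the ozone and air values of 6 h overlapped. Over those 15 lungs the Cxcr2 probes gave r = 0.79.

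**Figure D4:**
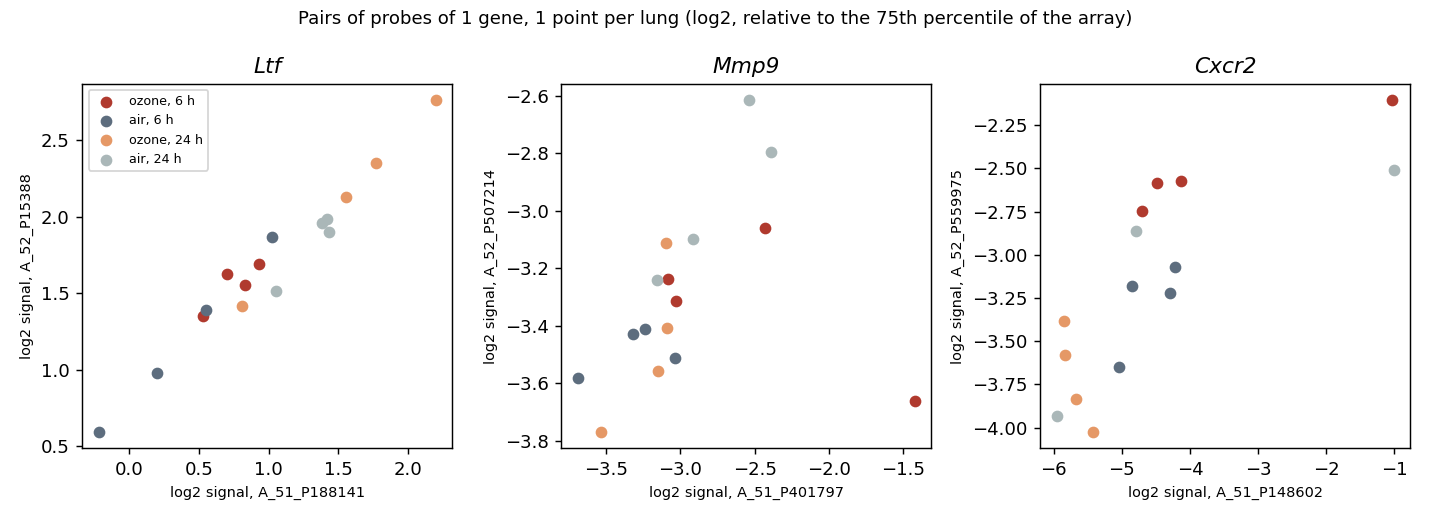
The 2 probes of Ltf, Mmp9 and Cxcr2 set against each other. Each point is 1 lung, coloured by group, and both axes are log2 signals relative to the 75th percentile of the array. The Ltf points follow a line, ozone replicate 1 of 6 h lies far to the right in the Mmp9 panel, and 1 ozone lung of 6 h and 1 air lung of 24 h lie to the right in the Cxcr2 panel.

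Between lungs of the same group some members moved together and others did not. Deviations from the group means were correlated over the 16 lungs, which is a description of these arrays. Of 45 pairs, 16 had r above 0.5, 13 were below 0, and the median was 0.26. S100a9 and Retnlg gave 0.91, S100a8 and S100a9 0.90, S100a8 and Retnlg 0.83, and Camp and Mmp8 0.83. With the mean of the other members Ltf gave -0.14, Mmp9 0.14 and Ngp 0.15, the lowest of the 10. Ltf gave -0.34 with Mmp8 and -0.29 with S100a9. Ngp gave -0.04 with S100a8 but 0.46 with Camp and 0.44 with Ltf. When the mean of each group on each slide was removed instead, S100a9 and Retnlg gave 0.96, S100a8 and S100a9 0.85, and Ltf and Mmp8 -0.06. Ngp and Camp then gave 0.70, Ngp and Ltf 0.53, Ltf and S100a8 0.41, and Ltf and Camp 0.40, and the median over pairs was 0.40. The same lungs carried the pattern in S100a9 and Retnlg: ozone replicate 3 of 24 h was the lowest of its group in both, and air replicate 3 was the lowest in air lungs of 24 h in both.

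**Figure D5:**
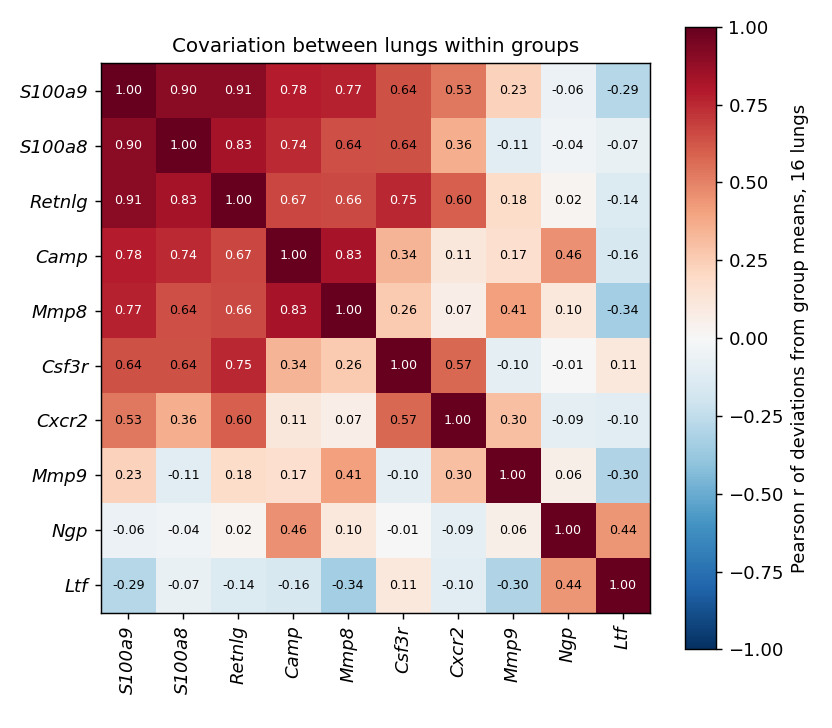
Pearson r between members over 16 lungs, after the mean of each group was removed. Rows and columns are the genes, and colour and printed number give r on a scale of -1 to 1. The block of S100a9, S100a8, Retnlg, Camp and Mmp8 holds values of 0.64 to 0.91, and Ltf has values between -0.34 and 0.11 with all members except Ngp.

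Among the other 16183 named genes, those whose deviations were most like the mean of the members were Cstdc4 (r = 0.87), Stfa3 (0.87), Ifitm6 (0.87), Wfdc21 (0.86), Cstdc5 (0.86), Hbq1a (0.85), Csta1 (0.85), Stfa2l1 (0.84), Stfa2 (0.83) and Stfa1 (0.82). The Stfa, Cstdc and Csta1 genes encode stefins, inhibitors of cysteine proteases, and are near copies, so a probe may read more than 1 of them. Of the 39 other neutrophil genes ranked, 7 were among the 100 most alike. Over the 16 lungs with group differences kept, the 5 most alike were Slc4a1 (0.88), the band 3 anion exchanger of red cells, Tspan33 (0.87), Ifitm6 (0.87), Ermap (0.86) and Npsr1 (0.86). Within groups Slc4a1 gave 0.67 with the mean of the members. The part of blood content in these values was not tested.

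Promoters are shown for the S100a8, S100a9 and Retnlg genes, whose RNA moved together between lungs, and for Ngp and Ltf. After group means were removed, the r of Ngp and Ltf with those 3 genes lay between -0.29 and 0.02. With the mean of each group on each slide removed it lay between -0.05 and 0.41. Each is the 250 bases before the gene's start in RefSeq (build GRCm38.p6), and RefSeq promoters were matched for 9 of the 10 members, all but Mmp9. Capitals mark letters that match TTNNGNAA, a short form of the site of the C/EBP factors of granulocytes, or GAGGAA, the core read by the myeloid factor PU.1, on either strand, and no marked copies overlap.
S100a8: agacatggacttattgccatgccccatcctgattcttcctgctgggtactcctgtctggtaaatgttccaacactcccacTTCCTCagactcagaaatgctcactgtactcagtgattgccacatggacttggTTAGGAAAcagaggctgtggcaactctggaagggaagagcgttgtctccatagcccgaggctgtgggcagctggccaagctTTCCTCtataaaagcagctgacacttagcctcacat
S100a9: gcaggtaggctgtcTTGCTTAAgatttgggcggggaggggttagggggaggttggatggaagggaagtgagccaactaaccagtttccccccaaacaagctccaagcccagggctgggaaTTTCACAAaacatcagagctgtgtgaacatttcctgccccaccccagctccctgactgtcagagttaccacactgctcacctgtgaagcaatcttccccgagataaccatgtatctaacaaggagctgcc
Retnlg: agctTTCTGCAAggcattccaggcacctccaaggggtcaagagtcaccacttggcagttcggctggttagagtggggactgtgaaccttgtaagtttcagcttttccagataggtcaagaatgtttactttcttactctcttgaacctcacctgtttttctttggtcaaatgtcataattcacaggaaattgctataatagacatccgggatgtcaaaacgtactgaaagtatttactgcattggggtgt
Ngp: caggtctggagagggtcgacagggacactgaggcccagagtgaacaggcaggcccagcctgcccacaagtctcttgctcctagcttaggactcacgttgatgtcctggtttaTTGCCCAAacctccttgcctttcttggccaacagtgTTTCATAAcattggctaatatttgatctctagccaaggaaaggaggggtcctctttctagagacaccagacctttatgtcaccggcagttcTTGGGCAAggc
Ltf: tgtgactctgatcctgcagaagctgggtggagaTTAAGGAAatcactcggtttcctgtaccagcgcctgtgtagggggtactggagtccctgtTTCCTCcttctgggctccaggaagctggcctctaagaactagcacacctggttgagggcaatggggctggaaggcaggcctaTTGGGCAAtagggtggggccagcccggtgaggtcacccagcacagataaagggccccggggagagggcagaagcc
These windows lie at chr3:90668821-90669070 on the plus strand for S100a8, chr3:90695722-90695971 on the minus strand for S100a9, chr16:48872358-48872607 on the plus strand for Retnlg, chr9:110419558-110419807 on the plus strand for Ngp and chr9:111019042-111019291 on the plus strand for Ltf. A C/EBP match was found in 6 of the 9 members' windows and in 36.8% of all 32851 windows of the same length, and a PU.1 match in 5 of 9 and in 23.3% of all. Ngp held 3 C/EBP matches, and S100a9, Ltf and Mmp8 held 2 each. Both kinds occurred in 3 of 9, S100a8, Ltf and Mmp8, against 8.87% of all windows. These are counts of letters and no sign of binding.

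Other genes of the neutrophil programme, in 5 lists of 42 genes of which 39 were tested, were not called after ozone either, with 0 calls at 6 h and 0 at 24 h. At an unadjusted p under 0.05 there were 7 above and 1 below 0 at 6 h, and 4 above and 5 below 0 at 24 h, with medians of 0.08 and -0.05. Of all genes 21% met that rule at 6 h, 10.2% above 0, and 13.3% at 24 h, 5.05% below 0. In the list of other secondary granule genes, which are filled beside Ltf and Camp, Lcn2, the iron-scavenging lipocalin, had changes of 0.37 at 6 h (adjusted p = 0.101) and -0.39 at 24 h (adjusted p = 0.145). Olfm4, olfactomedin of a neutrophil subset, had changes of 0.44 at 6 h and -0.72 at 24 h (adjusted p = 0.214 and 0.0764), and its ozone values of 24 h were all below the air values. Cd177, a surface glycoprotein stored in these granules, had changes of 0.52 and -0.12. Of the primary granule genes, Mpo, myeloperoxidase, had changes of 0.21 and -0.24, and Ctsg of -0.22 and -0.05. Among other surface genes Il1r2, the decoy receptor of interleukin-1, had changes of 1.09 at 6 h (adjusted p = 0.147) and -0.78 at 24 h (adjusted p = 0.461), and Ltb4r1, the leukotriene B4 receptor, of 0.33 at 6 h (adjusted p = 0.102). Ncf4, an oxidase subunit, had a change of 0.31 at 6 h (adjusted p = 0.077).

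In air lungs at 24 h against 6 h, 26 of these 39 genes were called, 10 higher and 16 lower. Of the 5 other secondary granule genes 4 rose, among them Cd177 by 1.46 and Olfm4 by 1.03, in the direction of Ngp and Ltf. Of 12 other surface genes 1 rose, Itgb2 by 0.31, and 6 fell, among them the formyl peptide receptors Fpr1 by 1.47 and Fpr2 by 1.37 on the log2 scale. Of 13 oxidase and cytosolic genes 2 rose and 8 fell, led by Cybb, the oxidase core subunit, which fell by 1.57, and including the 4 stefins Stfa1, Stfa2, Stfa2l1 and Stfa3. Of 5 primary granule genes Mpo rose by 0.59 and Ctsg, cathepsin G, fell by 0.82, and of 4 granulocyte transcription factors Cebpa and Spi1, which encodes PU.1, rose and Cebpd fell. The share of all genes called was 49.9%. Within groups, r with the mean of the members ranged over these 39 genes from -0.51 for Hdc to 0.87 for Stfa3, and was 0.11 for Cybb. The cells behind these changes were not tested.

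Among the signals that attract neutrophils and drive their growth, 1 gene was called at each time after ozone. Cxcl5, a chemokine of epithelial cells that acts on Cxcr2, was at -2.19, -2.32, -3.80 and -3.37 in ozone lungs and at -4.73, -5.31, -5.12 and -5.36 in air lungs at 6 h. Every ozone value was above every air value, and Cxcl5 rose by 2.21 ± 0.34 (adjusted p = 0.00299), with 1.15 (adjusted p = 0.0694) under normexp background correction. The air values lay near the dimmest probe called above background on their arrays, so the size of the rise depends on how background is treated. At 24 h the change was 1.08 ± 0.34 (adjusted p = 0.136), and under normexp it was -0.38. Cxcl15, the lung chemokine lungkine, fell by 0.35 ± 0.09 on the log2 scale at 24 h (adjusted p = 0.0498), and its ozone values were below all air values at both times. That call was lost in 7 of 14 other settings and in 14 of 16 fits that left out 1 array. The list held 8 tested genes. Csf2, Il6, Ppbp, Cxcl1, Cxcl2 and Il1b were not called, and Cxcl3, Csf3, the ligand of Csf3r, and Il17a were well above background on at most 3 of the 16 arrays and were not tested.

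Markers of other cells gave the following beside the members. Of 12 monocyte and macrophage genes 1 fell at 6 h, the mannose receptor Mrc1 by 0.39, and 2 rose at 24 h, Csf1r, the receptor of the macrophage growth factor, by 0.31 and Mpeg1 by 0.52. Of 14 other settings and 16 fits that left out 1 array, the call of Mrc1 was lost in 7 and 12, that of Csf1r in 5 and 7, and that of Mpeg1 in 6 and 7. Their list median was 0.34 at 24 h, where the members' was -0.20, and their summed level ranged from 15.8 to 20.4 in ozone lungs and from 12.7 to 13.7 in air lungs. Of 7 red cell genes, 0 were called at 6 h with a median of 0.30, and 2 fell at 24 h, Klf1 by 0.99 and Kel by 0.75, with a median of -0.51. The call of Klf1 was lost in 3 of 14 other settings and 6 of 16 fits that left out 1 array, and that of Kel in 8 and 13. The summed level of the red cell genes ranged from 191 to 425 in ozone lungs and from 182 to 296 in air lungs at 6 h, and from 173 to 323 in ozone lungs and from 140 to 346 in air lungs at 24 h. The medians of the red cell list and of the members had the same sign at both times, and the part of red cells or macrophages in the members' values was not tested. Of 6 platelet genes 0 were called at either time, with medians of 0.16 and -0.24. Of 7 eosinophil, mast cell and basophil genes, 6 lymphocyte genes and 7 lung epithelium and endothelium genes, 0 were called at either time.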

How the data were processed

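RNA of 16 whole lungs was read on 1-colour arrays. Each spot's intensity in the authors' scanner files is linear. It comes from Agilent's Feature Extraction software, named in the submitters' processing notes, in version 10.7.1.1 according to the headers, which also record background subtraction and removal of spatial trends. A table of normalized log2 values that the authors deposited served as an alternative, and how its background was treated is unknown. Other columns of the deposited files mark spots as uneven, saturated or well above background.

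Spots of 1 probe were averaged on the log2 scale, and each array's 75th percentile was subtracted. Probes well above background on at least 4 arrays were kept (32343), 157 with an uneven spot were left out, and the brightest probe of a gene was used (21631 genes). Names came from a reference table through the accession, symbol or synonym. Groups were compared in 1 fit with limma 3.58.1 (trend) in R 4.3.3, all adjusted p-values being two-sided and Benjamini-Hochberg adjusted over all genes, or probes where said, with a threshold of 0.05. The fit was tested on simulated data. The red cell, macrophage and other summed levels are sums of linear values relative to the 75th percentile.

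The members, the lists and the naming rule were chosen with earlier results of these data known. The rule named all members, and per list and contrast up to 4 genes with the smallest p and any that passed, and the genes most like the members, passing over clone and predicted names. Ly6g, Cebpe, Hbb-b1, Cxcr1 and Ms4a2 of the lists were not analysed here. Nothing says that mice of 1 group came from separate litters, so p-values measure the spread between these mice. Alternatives were other background correction and normalization, filters, probe rules, slide and replicate blocks, each slide or time alone, array weights, a sex-linked covariate and leaving out each array.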

Additional observations from a re-analysis of the deposited data

Results flagged for a closer look

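In 6 of the 51 groups of 4 values of a member probe, 1 lung lay far from the other 3, by a share of the group's range that chance passes in about 1 group in 20. Probe A_51_P148602 of Cxcr2, which was not tested, stood at -1.03 in ozone replicate 3 of 6 h, against -4.14 for the next lung. Probe A_51_P188141 of Ltf stood at 1.05 in air replicate 1 of 24 h, against 1.39 for the next. Probe A_51_P401797 of Mmp9 stood at -3.53 in ozone replicate 3 of 24 h, against -3.15. S100a9 stood at 7.06 in ozone replicate 4 of 6 h, against 6.78, and at 5.55 in ozone replicate 3 of 24 h, against 6.01. Ngp stood at 0.25 in ozone replicate 3 of 6 h, against -0.11. The causes were not tested.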

How the results depend on the processing

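No member was called in the ozone contrast of 6 h under any of 14 other settings, which called between 53 and 1814 of all genes. In the ozone contrast of 24 h 0 members and 435 genes were called. The 14 other settings called between 47 and 1738 of all genes. With normexp background correction 2 members were called (Retnlg and Cxcr2) and with slide as a fixed block 1 (Retnlg). The replicate block gave 1 (Retnlg, adjusted p = 0.0167) and array weights gave 3 (Mmp8, Retnlg and Cxcr2). The same-numbered lungs share no stated litter or day, their deviations correlated between -0.01 and 0.20, and not every lung was most like its own number. For the difference between the times, 3 members were called with normexp (Cxcr2, Mmp9 and Retnlg) and 1 with array weights (Cxcr2), and between 1 and 547 of all genes, against 14. Leaving out each array gave 0 to 1 members at 6 h, 0 to 2 at 24 h, 0 to 1 for the difference and 4 to 7 in air lungs between the times. The highest counts of the first 3 ranges came without air replicate 3 of 24 h. In the same order, the fits that left out 1 array called 196 to 1687, 263 to 530, 0 to 263 and 9927 to 11810 of all genes. Of 48 tests of 12 member probes, 8 were called, against 13 with normexp and 7 with quantile normalization, alternatives chosen after seeing the data. The 8 calls of the main fit were all in air lungs between the times, where 50.4% of all probes were called. The change of Cxcl5 in air lungs, 24 h minus 6 h, was -1.07 and turned to 0.14 with normexp. At 6 h the sign turned in 6 of 30 other fits for S100a9, 3 for S100a8, 2 for Camp and 1 for Mmp8, and in no other member. The cause of these shifts was not tested. Cxcr2 and Mmp9 are dim, with lowest signals 1.83 and 1.79 (log2) above the dimmest probe called above background.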
